A study of Mus musculus with 12 samples.

Results

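Cx3cr1 encodes the fractalkine receptor CX3CR1, a chemokine receptor of monocytes and macrophages (Mϕ). It was 1 of 47643 genes in the deposited tables and was chosen because earlier work on these libraries had picked it for its difference between mice given the inhibitor compound III (CIII) and mice given vehicle (VEH). That difference is therefore described here without a test. All 12 libraries came from Mϕ sorted from the peritoneal lavage of adult female C57/BL6 mice at day 6 after an intraperitoneal injection of 5 mg/kg zymosan A, a yeast cell wall preparation that causes a peritonitis which resolves by itself. From day 1 the mice received daily injections of 25 mg/kg CIII, which blocks the prostaglandin E2 synthase mPGES-1, or of vehicle. The labels name no transgene or deletion for these groups, and none of the groups was left without zymosan. From each treatment came 3 libraries of F4/80lo Mϕ (CD45+, CD11b+, low for F4/80 and MerTK, without Ly6G, MHCII high) and 3 of F4/80hi Mϕ (CD45+, CD11b+, high for F4/80 and MerTK). The labels number the libraries of each group 1 to 3 and do not say whether a library is 1 mouse or a pool, so the p-values below measure the spread between these libraries.

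CX3CR1 is a receptor that couples to inhibitory G proteins and has CX3CL1 (fractalkine) as its ligand, a chemokine that is made as a membrane-bound stalk and shed by the proteases ADAM10 and ADAM17. Binding of the ligand drives adhesion and migration of the cell and supports its survival. In mice the receptor is known as a marker of monocytes that patrol vessels and of Mϕ that derive from monocytes, while large resident Mϕ of the peritoneal cavity carry little of it.

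The gene (ENSMUSG00000052336) lies on the minus strand of GRCm38 at chr9:119901616-120069879. The annotation lists 3 transcripts, and the whole protein is encoded in their last large exon. In the transcript Cx3cr1-201 that exon, exon 2, spans chr9:120048683-120052343 and holds the coding part of 1065 bases followed by 2587 bases after the stop codon. The libraries were read from the 3′ end of the mRNA, so the counts report the far end of this exon. The study's own PCR primers for Cx3cr1 sit in the same exon near the start codon, at chr9:120052194-120052295, coding bases 40 to 141 counted from the A of the start codon. The coding stretch between them ends 3511 bases before the 3′ end of the transcript. It is shown to place the PCR readout of the study against the 3′ counts, with the parts that the primers match in capitals, 5′ to 3′ on the coding strand.
Cx3cr1 coding stretch: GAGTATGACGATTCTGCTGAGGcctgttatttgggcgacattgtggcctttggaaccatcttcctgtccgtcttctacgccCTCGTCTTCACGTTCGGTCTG

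Both number 3 libraries of F4/80hi Mϕ went against several but not all markers of their label, and they enter the results on Cx3cr1 that use F4/80hi. Alox15, a lipoxygenase of resident peritoneal Mϕ, stood at 28.3 (VEH) and 11.5 (CIII) normalized counts in them against 636 to 1359 in the other 4 F4/80hi libraries. Adgre1, which encodes F4/80 itself, was at 404 and 351 against 1025 to 1207. Mertk, the other gene that defines the F4/80hi gate, did not go against the label, at 187 and 315 against 174 to 386. Gata6, the transcription factor that defines resident peritoneal Mϕ, was at 2.10 and 5.47 against 20.9 to 47.0. The summed level of the 8 resident markers was 555 and 647 RPM (reads per 1000000 reads on genes) against 3266 to 4752. Ccr2, the receptor of inflammatory monocytes, was in turn at 1321 and 672 normalized counts against 18.3 to 276. The other markers of monocyte-derived and small Mϕ did not all follow Ccr2, since Retnla (7.34 and 15.9 against 79.3 to 485), Mrc1 and Clec10a were lower in both number 3 libraries than in the other 4. The sum of these 8 markers was 1915 and 1231 RPM against 1239 to 2402. Libraries of number 3 also held 2.65 to 14.3% of their reads on Gm42418, a gene that overlaps ribosomal RNA, against 0.0723 to 0.579% in the others. In F4/80lo, number 3 had few reads of the dendritic cell markers, with a summed level of 5.02 (VEH) and 32.5 (CIII) RPM over the 7 genes against 125 to 260 in numbers 1 and 2. Library sizes ran from 426624 to 3389448 reads on genes. The group means and differences of Cx3cr1 below are therefore also given without number 3.

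Within F4/80lo Mϕ, the normalized counts of Cx3cr1 were 263, 317 and 108 in the VEH libraries numbered 1, 2 and 3, with a mean of 229 ± 109 (SD, n = 3). In CIII they were 768, 777 and 337, with a mean of 627 ± 251 (SD, n = 3). All 3 CIII libraries lay above all 3 VEH libraries, although the lowest CIII library, number 3, exceeded the highest VEH library, number 2, by little. The difference was 1.49 on the scale of log2(normalized count + 1), and within the numbers it was 1.54, 1.29 and 1.64. On the linear scale CIII stood 2.92, 2.45 and 3.13 times above VEH of the same number. Without number 3 the means were 290.0 (VEH) and 772 (CIII) and the difference was 1.42. A total of 226 to 1082 reads per library stood behind these values. In bulk samples such as these, a change in the number of cells that carry the transcript and a change in transcript per cell cannot be told apart.

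Within F4/80hi Mϕ, where the level was low, the VEH libraries held 17.3, 13.1 and 74.4 normalized counts of Cx3cr1, with a mean of 34.9 ± 34.3 (SD, n = 3). The CIII libraries held 67.1, 57.7 and 169, with a mean of 98.0 ± 61.7 (SD, n = 3). The groups overlapped, because number 3 of VEH lay above numbers 1 and 2 of CIII. The log2 difference was 1.71, and within numbers 1, 2 and 3 it was 1.90, 2.06 and 1.17. CIII was 3.88, 4.42 and 2.27 times above VEH of the same number, so CIII was higher in 3 of 3 numbers here as in F4/80lo. Without number 3 the means were 15.2 (VEH) and 62.4 (CIII) and the difference was 1.98, and without VEH number 3 alone it was 2.46. The VEH values of numbers 1 and 2 rested on 13 and 10 reads. Whether the CIII difference itself differed between the subpopulations was not tested.

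**Figure D1:**
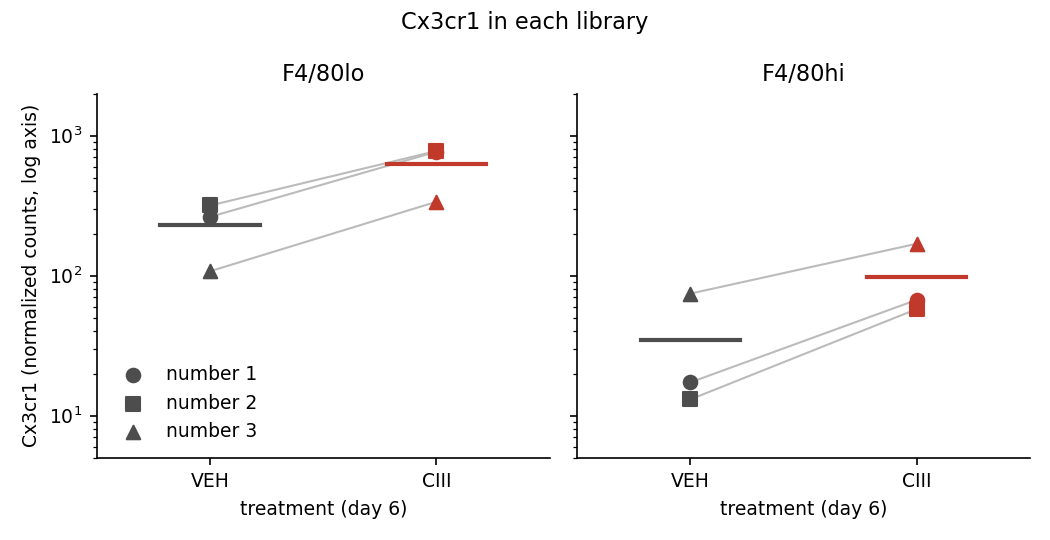
Cx3cr1 in normalized counts (log axis) by treatment at day 6, in F4/80lo (left) and F4/80hi (right). Each symbol is 1 library, grey lines join VEH and CIII of the same number, and bars are group means. Every line slopes upward, the F4/80lo groups do not overlap, and VEH number 3 of F4/80hi (74.4) lies above 2 of the CIII libraries.

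None of the sort gate genes passed the test between CIII and VEH after adjustment. Under an unadjusted p of 0.05 in limma were 1 of 8 tested in F4/80lo and 3 of 8 in F4/80hi, all higher in CIII. Over all genes the shares were 2.7% and 3.93% in either direction. The study had named the gate gene H2-Eb1 among its upregulated genes in both subpopulations of these libraries, so these counts are a description. Adgre1 differed by 0.04 in F4/80lo and -0.12 in F4/80hi, and Itgam, which encodes CD11b, by -0.15 and 0.21. Mertk, the receptor tyrosine kinase that defines the F4/80hi gate together with F4/80, had 174, 246 and 187 normalized counts in VEH and 325, 386 and 315 in CIII F4/80hi, without overlap, with log2 differences of 0.77 in F4/80hi and 0.59 in F4/80lo. H2-Ab1, a chain of the MHC class II molecule that was part of the F4/80lo gate, had 3602, 4147 and 768 normalized counts in VEH F4/80lo and 7731, 4165 and 5272 in CIII. In F4/80hi, where MHCII served only to set aside CD11c+ MHCII+ dendritic cells beforehand, it had 374, 157 and 542 in VEH and 1338, 385 and 3800 in CIII. Its log2 differences of 1.29 and 1.98 did not pass the test in limma (adjusted p = 1.00 in F4/80lo and 0.992 in F4/80hi). The non-classical monocyte marker Spn, the sialophorin CD43, lay between 97.3 and 116 in VEH F4/80lo and between 138 and 186 in CIII F4/80lo, without overlap. In F4/80hi it lay between 19.6 and 78.6 in VEH and between 52.9 and 122 in CIII. Nr4a1, a transcription factor on which these monocytes depend, had log2 differences of -0.55 and -0.21, and of the 4 markers of this list tested in F4/80lo 1 was higher and 3 were lower in CIII, 0 of them under an unadjusted p of 0.05 in limma. The summed level of the 5 non-classical monocyte markers was 117 to 217 RPM in VEH and 188 to 250 in CIII F4/80lo, and 80.9 to 91.1 and 87.0 to 153 in F4/80hi. Their members Ace, Treml4 and Cd300e reached at most 5.82, 13.3 and 3.85 normalized counts in any library. The B cell markers summed to 20.4 to 129 RPM in VEH and 27.8 to 189 in CIII F4/80lo, and to 0 to 39.0 and 11.5 to 63.9 in F4/80hi. The neutrophil markers summed to 49.7 to 124 RPM in VEH and 36.6 to 45.5 in CIII F4/80hi, without overlap. In F4/80lo they summed to 26.8 to 74.9 and 23.1 to 49.8. Of the 8 resident markers, all 8 were lower in CIII within F4/80hi, with a median of -0.36 against 0.05 over all genes. Within F4/80lo 5 of 7 tested were higher and 2 lower, and 0 were under an unadjusted p of 0.05 in limma in either subpopulation. The part of these cell types in the Cx3cr1 difference was not tested.

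Across all genes, limma on log2(normalized count + 1) called no gene between CIII and VEH at an adjusted p under 0.05, neither among 10718 genes tested in F4/80lo (0%) nor among 10499 in F4/80hi (0%). At an unadjusted p under 0.05 it called 289 genes (2.7%) in F4/80lo and 413 (3.93%) in F4/80hi. With the number as a block, 738 (6.89%) and 1187 (11.3%) were under an unadjusted p of 0.05, and 0 after adjustment in either. On the recovered reads edgeR called 0 and 0 genes and DESeq2 called 2 and 0.

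Among the ligand and its proteases, Cx3cl1 itself had 0 reads in all 12 libraries. With 13726314 reads in total, this allows a level of up to 0.219 RPM as an average over the 12 libraries, counting error only. In single libraries 3 reads stood for 0.885 to 7.03 RPM. Adam10 and Adam17, the sheddases of the ligand, and Ctss, which encodes the protease cathepsin S, were all measured, and none passed the test in either subpopulation. Adam17 had log2 differences of 0.29 in F4/80lo and 0.47 in F4/80hi, and Ctss of 0.40 and 0.69. The median over these 3 genes was 0.29 in F4/80lo and 0.47 in F4/80hi, against -0.05 and 0.05 over all genes tested.

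None of the other chemokine receptors was called between CIII and VEH. Of 23 listed receptors, 5 had no read in any library, 7 passed the minimum mean of 3 normalized counts in F4/80lo and 6 in F4/80hi, and 0 of these had a limma p under 0.05, adjusted or not. Their median log2 difference was 0.05 in F4/80lo and 0.68 in F4/80hi. Ccr2 had 913, 402 and 1557 normalized counts in VEH F4/80lo and 1209, 551 and 2183 in CIII, a log2 difference of 0.45 ± 0.59 (SE). Each number was thus higher in CIII than in VEH, but the groups overlapped widely. In F4/80hi, with 50.5, 18.3 and 1321 in VEH and 276, 105 and 672 in CIII, numbers 1 and 2 were higher and number 3 was lower in CIII. Ccr1, a receptor for CCL3 and CCL5 among others, differed by 0.05 ± 0.34 in F4/80lo and by -0.19 ± 0.37 in F4/80hi. Cxcr4, the receptor of CXCL12, had 24.4, 14.1 and 18.0 normalized counts in VEH F4/80lo and 7.09, 25.1 and 3.32 in CIII, which overlapped.

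**Figure D2:**
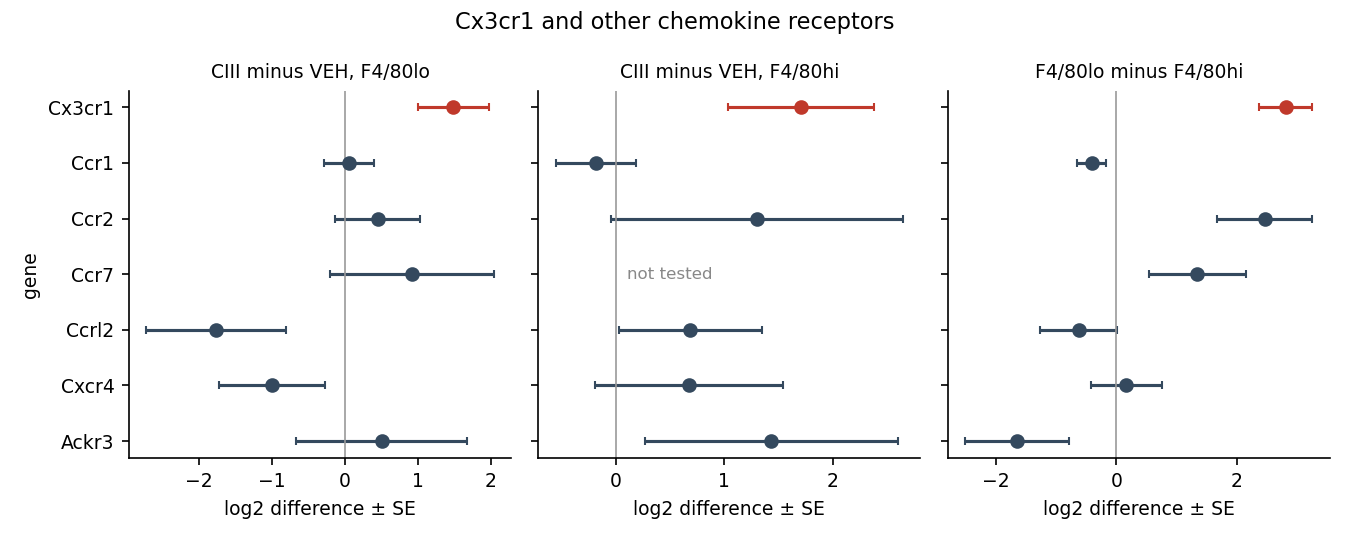
Log2 differences with their standard errors from the limma fits for Cx3cr1 (red) and 6 other chemokine receptors tested, for CIII minus VEH in F4/80lo, CIII minus VEH in F4/80hi and F4/80lo minus F4/80hi. Cx3cr1 lies at 1.49, 1.71 and 2.81, and Ccr2 at 0.45, 1.30 and 2.46 with wider errors in the last 2 panels. Ccr7 had too few reads in F4/80hi to be tested there, and in the last panel it passed the filter only through F4/80lo.

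Signalling components below the receptor were mostly present, and none was called between CIII and VEH. Of 22 listed genes 20 were tested, 13 being higher and 7 lower in CIII within F4/80lo, while F4/80hi had 10 higher and 10 lower, and 0 had an unadjusted p under 0.05 in either. Their median difference was 0.26 in F4/80lo and -0.01 in F4/80hi. Gnai2, the main inhibitory G protein subunit of leukocytes, had log2 differences of 0.32 ± 0.37 and -0.18 ± 0.51. Arrb2, an arrestin that uncouples receptors from G proteins, had 0.31 ± 0.46 and -0.05 ± 0.48. Among 9 survival genes, of which 9 were tested in F4/80lo and 8 in F4/80hi, 0 were called after adjustment. Mcl1, Bak1, Bax and Bcl2l11, the 4 with the highest levels, had log2 differences of 0.01, 0.23, -0.61 and 0.27 in F4/80lo and of 0.13, -0.32, -0.41 and 0.82 in F4/80hi. In F4/80hi 1 gene was higher and 1 lower at an unadjusted limma p under 0.05, against 3.93% of all genes. The lower one was the anti-apoptotic Bcl2a1b (log2 difference -1.65, unadjusted p = 0.0338, adjusted p = 0.992). The higher one, the anti-apoptotic Bcl2, had been picked by the study from these same libraries, so its values are a description. It stood at 42.5, 35.3 and 32.5 normalized counts in VEH F4/80hi and 84.5, 62.5 and 109 in CIII, without overlap. In F4/80lo its values of 34.9, 79.6 and 74.6 against 68.1, 103 and 97.3 overlapped, with CIII higher in 3 of 3 numbers and a log2 difference of 0.56.

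Among 7 tested integrin genes of adhesion, 4 were higher in CIII within F4/80lo and 7 within F4/80hi, and 0 were called after adjustment. Itgb7 encodes the β7 subunit, which pairs with α4 or αE. The study had picked it from these libraries together with Cx3cr1, so its difference is described without a test. Its normalized counts were 82.6, 149 and 136 in VEH and 290, 238 and 395 in CIII F4/80lo, and 136, 91.4 and 73.4 in VEH and 180, 263 and 270 in CIII F4/80hi. The groups did not overlap in either subpopulation, with log2 differences of 1.33 ± 0.37 and 1.26 ± 0.36 (SE). Its partner Itga4 had differences of 0.44 ± 0.44 and 0.52 ± 0.36, Itgb1 of 0.27 and 0.53, and Itgb2 of 0.46 and 0.10. Of the 11 transcription factors of monocytes and Mϕ, 0 had an unadjusted p under 0.05 in either subpopulation. Klf2, a factor of quiescent monocytes, had the difference 0.65 ± 0.46 in F4/80lo and 0.19 ± 0.48 in F4/80hi. Smad3, an effector of TGF-β, which is known to induce Cx3cr1 in microglia, had 38.4, 59.0 and 27.3 normalized counts in VEH and 93.6, 110 and 54.2 in CIII F4/80lo. Its unadjusted p was 0.0368 and its adjusted p 1.00 in limma, and 1 of the 7 TGF-β signalling genes tested in F4/80lo was thus under 0.05 before adjustment, against 2.7% of all genes.

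To set F4/80lo against F4/80hi, which had been normalized separately, RPM of each library were used. In VEH, Cx3cr1 stood at 270, 349 and 95.3 RPM in F4/80lo and at 17.9, 14.5 and 67.6 in F4/80hi for numbers 1, 2 and 3. In CIII, F4/80lo held 832, 797 and 354 RPM, whereas F4/80hi held 74.3, 65.0 and 177. F4/80lo was higher in 6 of 6 pairs of the same treatment and number. The ratio was 15.05 and 24.1 in numbers 1 and 2 of VEH and 11.2 and 12.3 in those of CIII, but only 1.41 and 1.995 in number 3. Exact 95% Clopper-Pearson intervals on the reads, which cover counting error only, did not overlap in 5 of the 6 pairs. In number 3 of VEH they met, at 52.8 to 85.2 RPM in F4/80hi and 85.2 to 106 in F4/80lo.

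The mean difference was 2.81 ± 0.44 (SE) on the scale of log2(RPM + 1), and limma called Cx3cr1 as higher in F4/80lo (adjusted p = 0.0462). It was 1 of 4 genes called among 10736 tested (0.0373%). The other 3 were Saa3, an acute phase protein that was higher in F4/80hi (log2 difference -2.36), and Grk3 and Tnip3, higher in F4/80lo by 2.72 and 2.48. They are named because they were called, after their values were seen, and all 4 had the same adjusted p. Libraries of the same treatment and number deviated together. A second limma fit therefore took each pair of F4/80lo and F4/80hi of the same treatment and number as a block. With this block 514 genes were called (4.79%), 327 of them higher (3.05%) and 187 lower (1.74%) in F4/80lo. Cx3cr1 had an adjusted p of 0.000607 in this blocked fit and the 22nd smallest p. Over the 12 values alone, the exact two-sided permutation test of 6 against 6 gave p = 0.00433, and over the 6 pairs p = 0.0313, the smallest that 6 pairs can give.

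The call was lost with TMM scaling (adjusted p = 0.0550 in limma), with edgeR (adjusted p = 0.0707) and without most single libraries. Without any 1 library the difference was 2.61 to 3.15, and the adjusted p from limma rose above 0.05, to between 0.0755 and 0.245, when any 1 of the 9 libraries other than VEH F4/80lo 3, VEH F4/80hi 3 and CIII F4/80hi 3 was left out. Without all of number 3 the difference was 3.85, with an adjusted p of 3.24e-07 and 343 genes called. Within VEH the difference was 2.94 ± 0.62 and within CIII 2.69 ± 0.62, and neither passed alone (adjusted p = 0.403 and 0.599 from limma). In these smaller comparisons 0 genes were called in VEH (0%) and 0 in CIII (0%), against 643 and 562 at an unadjusted p under 0.05.

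**Figure D3:**
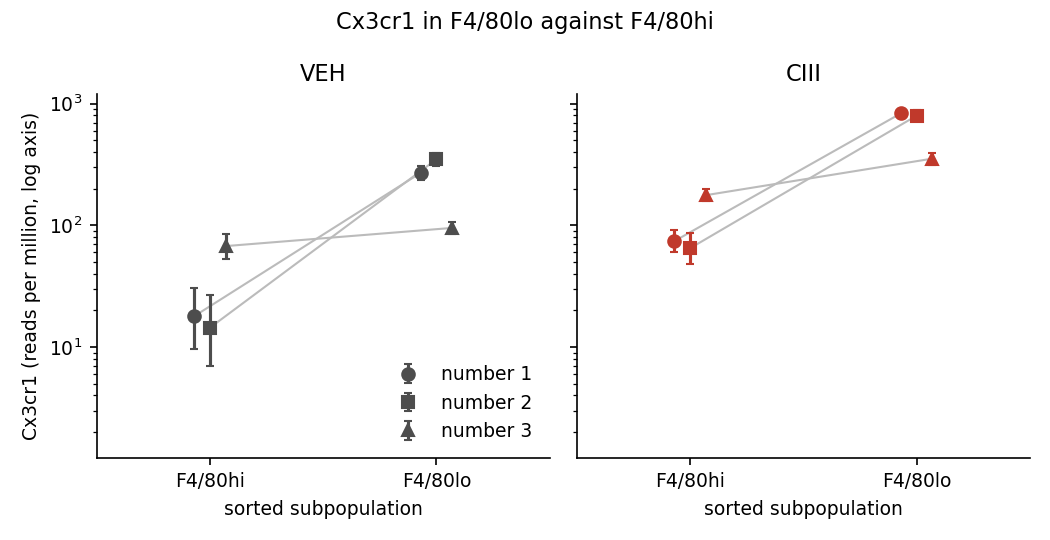
Cx3cr1 in RPM (log axis) in F4/80hi and F4/80lo, for VEH (left) and CIII (right). Symbols are libraries by number, bars the exact 95% intervals of the reads and grey lines join libraries of the same number. Numbers 1 and 2 differ by 11.2 to 24.1 times, number 3 by 1.41 and 1.995 times.

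Ordered by their means, the 4 groups stood at 33.3 ± 29.7 (VEH F4/80hi), 105 ± 62.3 (CIII F4/80hi), 238 ± 130 (VEH F4/80lo) and 661 ± 267 (CIII F4/80lo) RPM (SD, n = 3 each). Neighbours in this order overlapped library by library, except that CIII F4/80lo, with 354 as its lowest, lay just above VEH F4/80lo, with 349 as its highest. Without number 3 the means kept this order, at 16.2, 69.6, 309 and 814 RPM. Number 3 was the lowest library of both F4/80lo groups and the highest of both F4/80hi groups.

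Other genes differed between the subpopulations beside Cx3cr1. Of the 8 markers of resident large peritoneal Mϕ, all 8 were lower in F4/80lo. The blocked limma fit, which called 1.74% of all genes lower, called 7 of them at an adjusted p under 0.05, and 0 were called without the block. Gata6, 1 of the 8, passed the filter on low values only through F4/80hi, so its lower level in F4/80lo was fixed by the filter. The median difference over the 8 was -1.80, against 0.07 over all genes tested. Alox15 differed by -2.01 and Adgre1, a gene of the gate itself, by -1.61. Of the 8 markers of monocyte-derived and small Mϕ, 7 were higher and 1 was lower in F4/80lo, with a median difference of 1.06. The blocked fit called 2 of them higher and 1 lower, against 3.05% and 1.74% of all genes, and 0 were called without the block. Within F4/80hi only 7 of these 8 passed the filter on low values, so 1 direction was fixed by it. Of the chemokine receptors, 1 of 7 tested was called with the block, against 4.79% of all genes. This was Ccr2, at 2.46 ± 0.79 (blocked adjusted p = 0.00104). Without the block 0 were called by limma, edgeR or DESeq2, with Ccr2 alone under an unadjusted p of 0.05 in limma. Ccr7, 1 of the 7 and not called, passed the filter on low values only through F4/80lo, so its direction was fixed by the filter. Of the signalling genes, 3 of 20 were called with the block, all higher in F4/80lo, as were 3.05% of all genes, and 1, Grk3, without it. They were Grk3, a kinase that phosphorylates active receptors, the arrestin Arrb1 (difference 0.75) and Rgs2 (difference 0.67), which shortens G protein signals. Grk3 had 139, 217 and 41.0 RPM in VEH F4/80lo against 9.66, 11.6 and 12.4 in VEH F4/80hi, and was lower in number 3 of F4/80lo just as Cx3cr1 was. Its CIII values were 120, 159 and 56.8 in F4/80lo against 29.5, 21.7 and 13.2 in F4/80hi, so the groups did not overlap.

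Markers of dendritic cells, which also carry CX3CR1 in some of their subsets, were read in F4/80lo although the study set CD11c+ MHCII+ dendritic cells aside in its gating. Their sum was 5.02 to 260 RPM in the F4/80lo libraries and 1.35 to 21.7 in the F4/80hi libraries, which overlapped. Flt3, Cd209a and Ccr7 passed the filter on low values only through F4/80lo, so levels are given and no count of calls of this list. Flt3, a growth factor receptor of dendritic cells, had 20.9, 25.7 and 1.33 normalized counts in VEH F4/80lo and was at 0 in all 3 VEH F4/80hi libraries. Cd209a had 97.7, 126 and 1.67 against 1.33, 1.31 and 0. Ccr7 had 0, 11.6 and 0.999 against 0, 0 and 6.29. Itgax, which encodes CD11c, differed by 3.40 (blocked adjusted p = 0.00126), and the MHC class II genes H2-Aa, H2-Ab1 and H2-Eb1 by 2.16, 2.45 and 2.58, all called with the block and none without it. Number 3 of VEH was the lowest F4/80lo library for Flt3, Cd209a, Itgax and the 3 MHC class II genes as it was for Cx3cr1. Of the B cell markers Ighm, the heavy chain of IgM, was higher in F4/80lo by 2.58 (blocked adjusted p = 0.0163), and of the non-classical monocyte markers Spn by 1.20 (blocked adjusted p = 0.00787), neither being called without the block. T and NK cell markers summed to at most 73.3 RPM, neutrophil markers to at most 124, and mesothelial and eosinophil or mast cell markers to at most 1.20 and 1.48, in any library. The part of these cell types in the difference of Cx3cr1 was not tested.

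**Figure D4:**
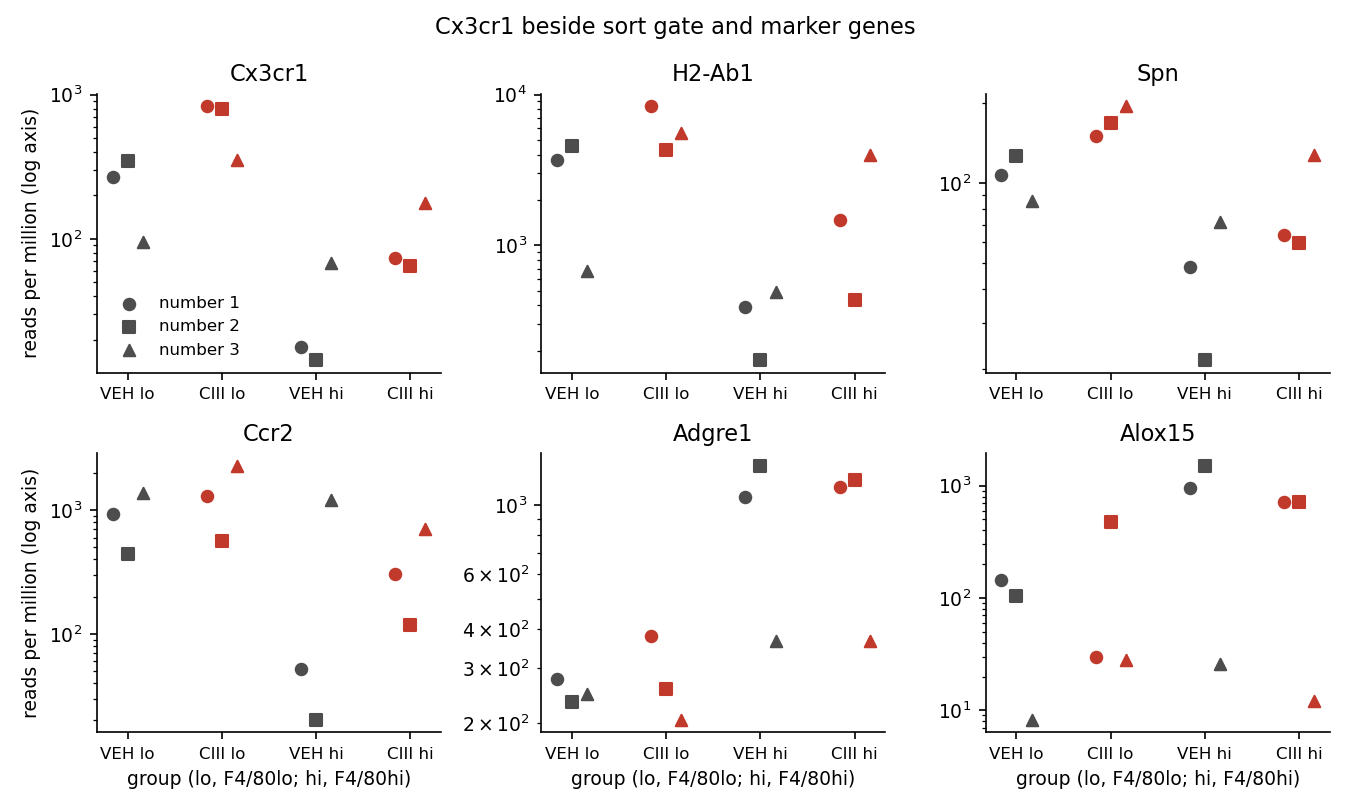
RPM (log axes) of Cx3cr1 and of 5 gate or marker genes in each library, with groups on the horizontal axis, symbols for the number and colours for VEH (grey) and CIII (red). Number 3 (triangles) of F4/80hi lies within the range of the F4/80lo libraries for Adgre1, Alox15 and Ccr2.

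Which genes followed Cx3cr1 was described by the Pearson correlation of log2(normalized count + 1) over the 12 libraries, after the mean of each subpopulation had been subtracted, among 6019 other genes with a mean of at least 20 in each table. The 12 points share 4 groups, 3 numbers and 1 gating scheme, so no p is given, and the CIII contrast that chose Cx3cr1 is part of what is correlated. The median correlation was 0.03, and 29 genes (0.482%) reached 0.8. The 10 most like Cx3cr1 were H2-DMb1 (0.923), Cic (0.901), Slc15a4 (0.873), Gsdmd (0.873), Pum2 (0.870), Plekho2 (0.869), Ifngr1 (0.869), H2-Ab1 (0.864), Sulf2 (0.857) and Zdhhc9 (0.851). H2-DMb1 encodes a chain of the molecule that loads peptides on MHC class II, and H2-Ab1 a chain of MHC class II itself. Of the remaining MHC class II genes of the gate, H2-Aa (0.844) and H2-Eb1 (0.829) came 13th and 20th. Spn, at 0.822, was the highest of the listed markers outside the gate, while Ccr2 reached 0.567. Nr4a1, from the same list as Spn, was at -0.567, and of the gate genes Itgam and Adgre1 were at -0.325 and -0.513 and Mertk and Ptprc at 0.454 and 0.377.

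H2-DMb1 had 508, 608 and 167 normalized counts in VEH and 816, 678 and 567 in CIII F4/80lo, and 66.5, 57.5 and 184 in VEH and 190, 86.5 and 362 in CIII F4/80hi. As for Cx3cr1, number 3 was thus the lowest of both F4/80lo groups and the highest of both F4/80hi groups. Ifngr1, a chain of the interferon-γ receptor, had 521, 438 and 422 in VEH and 810, 1110 and 983 in CIII F4/80lo, and 312, 206 and 449 against 506, 635 and 856 in F4/80hi. Its VEH and CIII libraries did not overlap in either subpopulation. Gsdmd encodes the pore-forming gasdermin D, and Slc15a4 a transporter of the endolysosome on which signals from endosomal Toll-like receptors depend. Of these 10 genes, 9 were higher in CIII in every number of both subpopulations, as were 340 of the 6019 compared. The 10 were picked for likeness to Cx3cr1, itself higher in CIII in every number, so this share follows largely from the choice. The log2 differences of the 10 ran from 0.36 to 1.29 within F4/80lo, while those within F4/80hi ran from 0.29 to 1.98, mostly smaller than those of Cx3cr1. Between F4/80lo and F4/80hi, 4 of the 10 were called with the block, against 4.79% of all genes, and 0 without it.

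The genes most unlike Cx3cr1 were Pold3 (-0.851), Kmt5a (-0.831), Prdx6 (-0.820), Pcbp2 (-0.792) and Gsr (-0.789). Pold3 is a subunit of DNA polymerase δ, Kmt5a a histone methyltransferase, Prdx6 a peroxiredoxin and Gsr glutathione reductase. Pold3 had 60.5, 60.3 and 94.9 normalized counts in VEH and 27.0, 34.3 and 50.9 in CIII F4/80lo, without overlap. In F4/80hi it had 66.5, 61.4 and 51.4 against 42.6, 57.7 and 36.1, which overlapped.

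The correlations of the 10 genes stayed above 0.67 when taken in other ways centred on the subpopulation or group, but their place at the top did not hold. Within F4/80lo (n = 6 libraries) they ran from 0.683 to 0.9499 and within F4/80hi (n = 6) from 0.809 to 0.968. After subtraction of each of the 4 group means they ran from 0.674 to 0.907, and over numbers 1 and 2 alone from 0.746 to 0.927. Yet 0 of the 10 were still among the first 10 over numbers 1 and 2 alone, and 2 were after subtraction of the group means. Leaving out VEH F4/80lo 3 kept 2 of the 10, VEH F4/80hi 2 kept 3, and CIII F4/80lo 1, CIII F4/80lo 2 or CIII F4/80hi 2 kept 6 each. The summed level of the B cell markers correlated with Cx3cr1 at 0.701 (0.804 over numbers 1 and 2 alone), of the non-classical monocyte markers at 0.633 (0.129) and of the gate genes at 0.577 (0.615). The dendritic cell markers reached 0.340 (-0.294), the T and NK cell markers 0.252 (0.545), the monocyte-derived and small Mϕ markers 0.170 (-0.0534) and the neutrophil markers -0.287 (-0.413). The resident markers, at -0.408 (-0.233), went opposite ways within the subpopulations, at 0.634 in F4/80lo and -0.791 in F4/80hi, and the dendritic cell markers stood at 0.719 in F4/80lo and -0.07 in F4/80hi. Depth and the share of Gm42418 correlated at -0.06 and 0.08 over the 12 libraries, but at -0.702 and -0.714 within F4/80lo and at 0.866 and 0.677 within F4/80hi. These are descriptions over few libraries, and their part in the correlations was not tested.

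**Figure D5:**
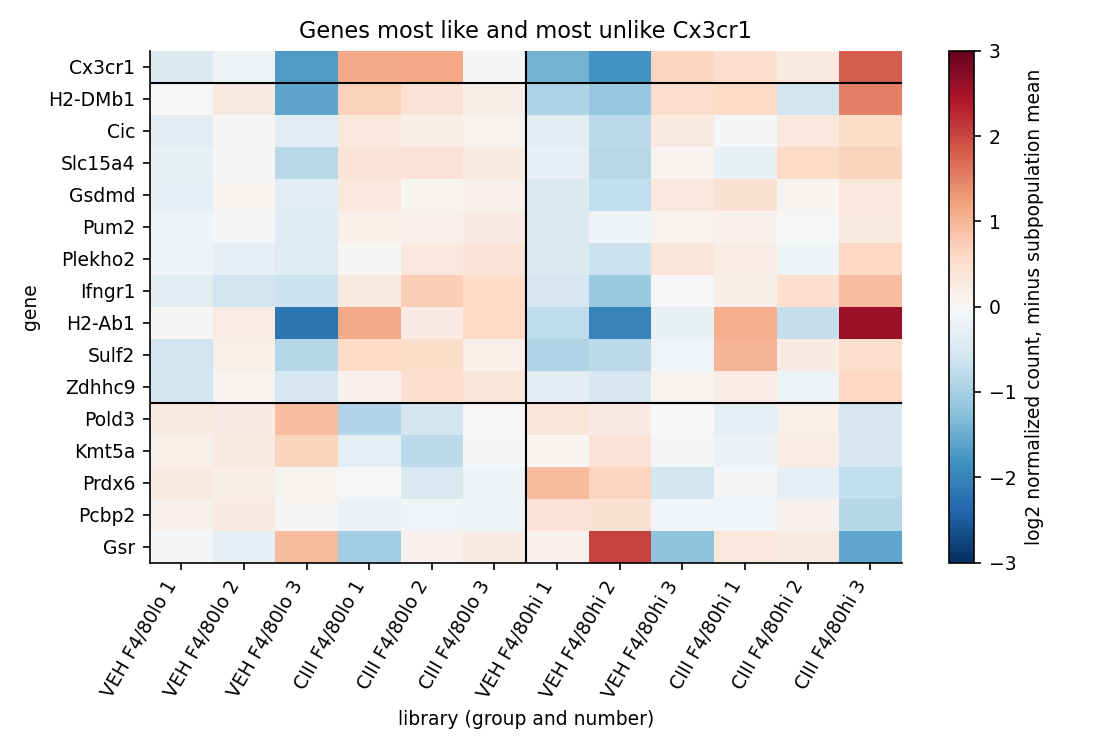
Log2(normalized count + 1) minus the mean of the subpopulation, by library, for Cx3cr1 (top row), the 10 genes most like it and the 5 most unlike it. Red is above and blue below the mean of the subpopulation. In Cx3cr1 and H2-DMb1 the lowest F4/80lo library is VEH 3 and the highest F4/80hi library is CIII 3.

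The annotated span of Cx3cr1 is long because the transcript Cx3cr1-202 ends in an exon of 12 bases at chr9:119901616-119901627, far from the main 3′ end. It overlaps 5 other genes. Of these Wdr48 (41.8 to 117 normalized counts), Gorasp1 (0 to 18.3) and Csrnp1 (2.40 to 29.1) were detected, Ttc21a had no read and Xirp1 was at most 0.71. Wdr48, on the opposite strand, had log2 differences of 0.13 and 0.22 between CIII and VEH in F4/80lo and F4/80hi and of 0.31 between the subpopulations. The main coding exon of Cx3cr1 overlaps none of the 5.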

How the data were processed

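Mϕ mRNA of 12 libraries was sequenced by the authors with 3′ QuantSeq kits and molecular identifiers, trimmed with Bbduk, mapped to GRCm38 with STAR, collapsed by identifier, counted with HTSeq and divided by DESeq2 size factors, for F4/80lo and F4/80hi separately. The last step was read from the values, since the size factors they imply equal those that DESeq2 gave on the recovered reads of each table to 6 significant digits. The deposited values are thus a normalized count signal. Every value could be divided into whole reads (100%, tolerance 0.01), so the reads were recovered, 426624 to 3389448 per library. The strand setting of the counting is not given in the sources used here. Of 47643 identifiers 47224 matched a symbol in the annotation (GENCODE, GRCm38). The lowest value of Cx3cr1 rested on 10 reads, which limits its precision.

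CIII was set against VEH with limma 3.58.1 (R 4.3.3, empirical Bayes with a mean-variance trend, two-sided, Benjamini-Hochberg adjustment) on log2(normalized count + 1) for genes with a mean of at least 3, and F4/80lo against F4/80hi on log2(RPM + 1), where RPM is reads per 1000000 reads on genes. Alternatives used edgeR 4.0.16 and DESeq2 1.42.0 on the recovered reads. A fold on these scales understates the change of low genes. Permutation tests and intervals used scipy 1.17.1. The model script was tested on simulated data. Named genes were drawn from Cx3cr1, detected chemokine receptors, and the 4 highest members and any member called without the block of each other list. The 10 genes most like and 5 most unlike Cx3cr1, genes overlapping its span and the gate genes completed the choice. Not all genes under this rule are printed. Itgb7, Bcl2, Bcl2a1b, Gata6, Cd300e, Arrb1 and Rgs2 fell outside this rule and were named after their values were seen. Cx3cr1 and the lists were chosen with earlier results of these data known. Same-numbered libraries tended to deviate together (correlation of their deviations from the group means 0.121 to 0.685, against at most 0.285 for different numbers). This did not hold for every number. Number 1 of VEH correlated more with number 2 of CIII (0.171 in F4/80lo, 0.285 in F4/80hi) than with number 1 of CIII (0.121 and 0.216). The labels neither state nor explain such a link. The authors' own lists of changed genes were not used. The values of 1 further chemokine receptor are not reported here.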

Additional observations from a re-analysis of the deposited data

Results flagged for a closer look

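Ccrl2, which encodes an atypical receptor that binds chemerin, was the one named gene whose CIII difference had opposite directions in every number of the 2 subpopulations. In F4/80lo it stood at 22.1, 12.8 and 11.99 normalized counts in VEH and 12.8, 0 and 6.63 in CIII, lower in each number with a mean log2 difference of -1.77 (-3.79 to -0.75). In F4/80hi it stood at 5.32, 19.6 and 7.34 in VEH and 20.9, 22.8 and 7.66 in CIII, higher in each number by 0.05 to 1.80 with a mean of 0.69. The gap of -2.46 between the subpopulations was not tested, and neither difference passed the test of limma (adjusted p = 1.00 and 0.992). The -3.79 came from number 2, where CIII had 0 reads in the smallest library (426624 reads on genes), so the added count of 1 sets its size. The 0.05 was number 3 of F4/80hi, at 7.34 against 7.66. All 12 libraries together held 177 reads of Ccrl2, and the share of all genes with such opposite directions was not computed. Groups of 3 libraries are too small for a check of single outlying libraries.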

How the results depend on the processing

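The CIII difference of Cx3cr1 kept its direction under every alternative run, with a range of 1.02 to 1.89 (F4/80lo) or 1.23 to 2.46 (F4/80hi) when 1 library was left out, and the replicate block left it at 1.49 and 1.71. The genes called between CIII and VEH in F4/80lo numbered 2 with DESeq2 and 12 with numbers 1 and 2 alone, a choice made after seeing the data, against 0 otherwise. The difference of Cx3cr1 between F4/80lo and F4/80hi lay between 2.57 and 3.85 under 18 alternatives, of which 7 passed the threshold (adjusted p from 3.24e-07 to 0.245). It was 2.74 with TMM scaling (adjusted p = 0.0550) and 2.57 with edgeR (adjusted p = 0.0707), neither past the threshold, and 2.61 to 3.15 without 1 library. Over all genes this comparison called 4, against 2 with TMM scaling or edgeR, 11 with a pseudocount of 5 and 141 with DESeq2. It called 343 with numbers 1 and 2 alone and 514 with pairs of the same treatment and number as the block. Without the filter on low values it called 0 (at an unadjusted p, 1335), and without 1 library 0 to 124. Chemokine receptors called numbered 1 with the replicate block and 1 with numbers 1 and 2 alone, and 0 to 1 without 1 library, against 0. Between CIII and VEH the block called 0 genes, as the fit without it did. Between the subpopulations it also called listed genes that the report does not discuss one by one. Among them were 2 of 7 integrins and 2 of 7 TGF-β signalling genes, lower in F4/80lo, and 1 of 11 transcription factors, higher. Over all genes it called 1.74% lower and 3.05% higher. Of the 10 genes most like Cx3cr1, 4 were kept by Spearman correlation and 4 without centring, 2 after centring on the 4 groups, 0 after centring on each replicate block, 0 with numbers 1 and 2 alone and 2 to 10 without 1 library. The cause of these changes was not tested. Few reads limited the VEH F4/80hi values, the lowest of which rested on 10.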

Other observations

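Without subtraction of the subpopulation means, the gene most like Cx3cr1 over the 12 libraries remained H2-DMb1 (correlation 0.968), followed by Cic (0.962), Fmnl1 (0.939), Trerf1 (0.936), Cd74 (0.936) and Gsdmd (0.935). Cd74, the invariant chain of MHC class II, was higher in F4/80lo by 2.61 on the log2 scale, so this ranking also carries the difference between the subpopulations. These genes were named after their values were seen.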
